A study of Homo sapiens with 6 samples.

Results

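Wnt signalling is held in check by several of its own target genes, and 10 of these feedback genes and inhibitors were followed here in HCT116 cells, by their label, a long-established line from a human colorectal carcinoma. The genes, AXIN2, NKD1, NKD2, RNF43, ZNRF3, NOTUM, DKK1, APCDD1, TNFRSF19 and LGR5, were taken by symbol from a table of 19655 genes, and all 10 had a row. Expression had been measured by RNA sequencing of total RNA in 6 libraries. The 3 control libraries (NC, genotype given as control) were compared with 3 libraries of SNORA67 knockdown cells (ASO), transfected with an antisense oligonucleotide against the small nucleolar RNA SNORA67. All cells were the same line grown in DMEM with foetal bovine serum. The sources used here do not give the treatment of the control cells, nor the sequence, dose and duration of the oligonucleotide treatment. No label states that replicates were separate cultures, so p-values reflect only how these libraries vary, and that variation may be technical. SNORA67 was not analysed here, so the knockdown was not checked.

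In canonical Wnt signalling, secreted Wnt ligands bind Frizzled receptors and LRP co-receptors, the complex that destroys beta-catenin is switched off, and beta-catenin acts with TCF/LEF factors on target genes. Some targets feed back on the pathway: AXIN2 is a scaffold of the destruction complex, NKD1 and NKD2 bind Dishevelled, and RNF43 and ZNRF3 are membrane ubiquitin ligases that remove Frizzled from the cell surface. Others act outside the cell or on the membrane: DKK1 blocks the LRP co-receptors, NOTUM strips the lipid that Wnt ligands need, and APCDD1 is a membrane-bound inhibitor. LGR5 is a receptor for R-spondins, which shield Frizzled from RNF43 and ZNRF3, and marks intestinal stem cells. TNFRSF19 is a receptor of the tumour necrosis factor family known as a Wnt target. HCT116 is known for an activating mutation of the beta-catenin gene CTNNB1, which was not looked for here.

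The deposited estimated counts summed to between 50728524 and 53715905 in the NC libraries and to between 49136502 and 54905215 in the ASO libraries. In each library, 4 was the commonest count other than 0, so 1 sequenced fragment is taken as worth about 4 counts, and 12 counts per library, or 3 fragments, as the smallest amount detected (0.22 to 0.24 CPM, counts per 1e6). This limit covers counting error only. Of 15 colon epithelial markers, 2 reached 10 CPM (with TMM, trimmed mean of M values, scaling between libraries) on average in NC, namely KRT8 at 1360.1 ± 94.3 CPM and KRT18 at 712 ± 55.8 CPM, and 10 lay under 1 CPM, CDX2 among them. The adhesion genes EPCAM and CDH1 stood at 4.37 ± 1.13 and 1.06 ± 0.23 CPM. Summed over the list, these markers came to 1919 to 2212 CPM (NC) and 1662 to 2193 CPM (ASO), nearly all of it KRT8 and KRT18. Of the scarce ones, 3 were called higher in ASO by edgeR: LGALS4 (from 0.01 to 18.05 CPM), VIL1 (0.07 to 8.88) and KRT19 (0.05 to 1.66). These 3 lay under the 12-count limit on average in NC. They passed the filter on low counts used below only with their ASO libraries, where they are high, so nothing is read from their calls. Of 10 mesenchymal markers, 6 reached 10 CPM, with sums of 2562 to 2870 CPM in NC against 3249 to 3847 CPM in ASO. They did not move as one: 3 were called higher, among them COL5A1 (612 to 1280 CPM) and COL1A1 (160 to 374), and 3 lower, PDGFRB (101 to 41 CPM), DCN and LUM. VIM was at 1201 ± 82.2 CPM in NC. Immune markers summed to 2.77 to 3.56 CPM in NC against 11.7 to 15.9 CPM in ASO, of which CD79A alone made 0.11 and 7.04 CPM on average. PTPRC and CD3E were at 0 in every library. Endothelial markers summed to 9.59 to 10.8 and 14.6 to 19.7 CPM, with KDR at 0. In NC, 6 of 10 mesenchymal markers but 2 of 15 colon epithelial ones thus reached 10 CPM. The label of a colorectal carcinoma line is not borne out by most of these colon epithelial markers. The markers' part in the results below was not tested, nor was the identity of the line.

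The 10 genes fell into 2 sets of 5 by abundance. DKK1, NKD2, RNF43, NOTUM and ZNRF3 had 12 counts or more in all 6 libraries. APCDD1 and NKD1 were under 12 counts in every library, and AXIN2, TNFRSF19 and LGR5 crossed the limit in some. A filter on low counts left 6 of the 10 genes for testing, the 5 abundant ones and AXIN2. AXIN2 had 12 counts or more in 5 libraries, all but ASO replicate 2. DKK1, NKD2 and RNF43 rose in ASO, while 0 fell, by edgeR's quasi-likelihood test at an adjusted p under 0.05. Also by DESeq2 and limma-voom, 0 fell (with 20.6% and 20.8% of all genes lower), and 0 were lower at an unadjusted p under 0.05 by each of the 3 tools. Over all 14062 genes tested, 46.0% passed, 26.8% higher and 19.1% lower. The 3 rises among 6 genes stand beside that background share. The median log2 fold change was 1.04 over the 6 genes and 0.01 over all genes tested. The genes were chosen with results of these data known.

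**Figure D1:**
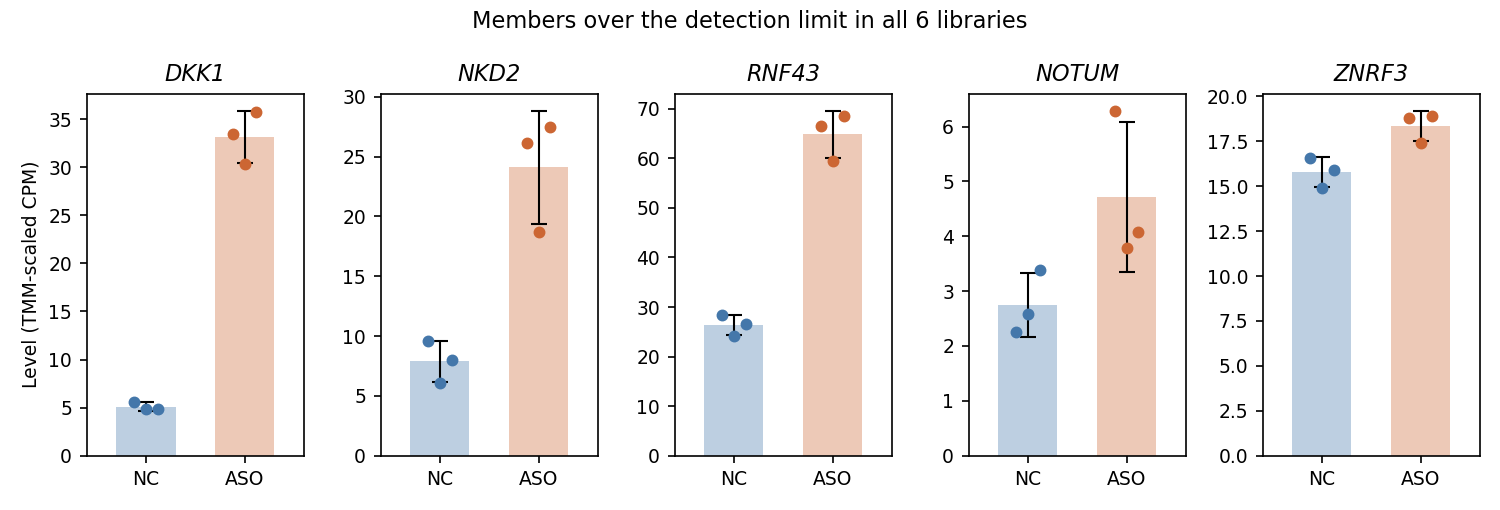
Level of each of the 5 abundant genes in NC and ASO, in TMM-scaled CPM on separate axes that start at 0; points are the 3 libraries of a group, bars their mean and error bars the SD. All 3 ASO libraries lie above all 3 NC libraries in each panel, by far for DKK1 (30.3 to 35.7 against 4.81 to 5.62 CPM) and narrowly for ZNRF3 (17.4 to 18.9 against 14.9 to 16.6 CPM). The same holds for 31.6% of all genes tested.

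DKK1, the secreted antagonist of the LRP co-receptors, made the largest rise of the 6. Its level was 5.62, 4.90 and 4.81 CPM in the NC libraries and 33.5, 30.3 and 35.7 CPM in the ASO libraries. Every ASO library was more than 5 times as high as any NC library, and the spread within each group was small. The edgeR fold change was 6.48 (95% interval 5.13 to 8.19; adjusted p = 8.72e-06), which is 2.70 ± 0.15 on the log2 scale (SE). It stood at the 91.3 percentile of the fold changes of all genes tested. DKK1 occupies chromosome 10 from 52314281 to 52317657 (hg38, as in the deposited table), on the plus strand. By the GENCODE annotation of GRCh38, 212 bases of its 2206 exonic bases overlap exons of PRKG1-AS1 on the other strand, and the sources used here do not give the strand setting of the counting.

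NOTUM, the other secreted inhibitor, was scarcer and more variable. It stood at 2.25, 2.59 and 3.39 CPM in the NC libraries and at 6.29, 3.78 and 4.08 CPM in ASO. The groups did not overlap, as was so for 57.6% of all genes tested (31.6% with ASO above NC). ASO replicate 1 was far above the other ASO libraries, and NC replicate 3 came close to ASO replicate 2. The fitted fold of 1.72 (95% interval 1.09 to 2.71) had an edgeR adjusted p of 0.0526 and an unadjusted p of 0.0245, so the test was narrowly missed. Between alternatives the adjusted p ran from 0.0354 to 0.181 and the call came and went. DESeq2 (adjusted p = 0.0354), the RLE scaling (0.0497) and counts divided by 4 (0.044) called it, 3 settings in which 28.5%, 27.3% and 27.0% of all genes were called higher. It was also called without ASO replicate 2 (log2 fold change 0.92) or without NC replicate 3 (0.95), where 27.5% and 23.8% of all genes rose, while without ASO replicate 1 the log2 fold change was 0.52. NOTUM spans 81952507 to 81961840 of chromosome 17, on the minus strand, with no annotated exon overlap.

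Of the paired membrane ligases, RNF43 rose and ZNRF3 was not called. RNF43 was at 28.3, 24.2 and 26.5 CPM in the NC libraries and at 66.6, 59.5 and 68.5 CPM in ASO. All ASO libraries were more than double all NC libraries. The fold change was 2.47 (95% interval 2.06 to 2.96; edgeR adjusted p = 9.43e-05). ZNRF3 stood at 16.6, 14.9 and 15.9 CPM in the NC libraries and at 18.8, 17.4 and 18.9 CPM in ASO. Its groups did not overlap either, as was so for 57.6% of all genes tested, 31.6% with ASO above NC. The fitted fold of 1.16 had a 95% interval of 0.948 to 1.43 (edgeR adjusted p = 0.196), which leaves room for a rise of up to 1.43-fold. None of the 15 alternatives called ZNRF3, and each of them called RNF43.

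The difference between these paralogues can be read from their ratio within each library, which no scaling of libraries changes. RNF43 had 1.70, 1.63 and 1.66 counts per count of ZNRF3 in NC and 3.54, 3.41 and 3.62 in ASO. The ratio was thus nearly constant within groups and about double in ASO. On the log2 scale it went from 0.73 ± 0.03 to 1.82 ± 0.04 (SD, n = 3 each), with a two-sided exact permutation p of 0.1, the smallest that 3 libraries against 3 allow (0.143 after Benjamini-Hochberg adjustment over 10 pairs of genes). Some reads counted for RNF43 may belong to other genes. RNF43 lies on the minus strand of chromosome 17 from 58353676 to 58417582, 1521 of its 7505 exonic bases overlap exons of TSPOAP1-AS1 on the plus strand, and 4469 overlap exons of AC004687.2 or SUPT4H1 on its own strand. SUPT4H1, picked after its values were seen, was at 65.9 ± 0.77 CPM in NC against 67.1 ± 3.44 CPM in ASO (edgeR adjusted p = 0.825). ZNRF3 (chromosome 22, 28883572 to 29057488, plus strand) shares no exonic base with another annotated gene.

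Of the Dishevelled-binding pair, NKD2 rose and NKD1 was not detected. NKD2 was at 9.55, 6.08 and 8.0 CPM in the NC libraries and at 26.1, 18.7 and 27.5 CPM in ASO. Replicate 2 was the lowest of both groups, and the lowest ASO library still lay well above the highest NC library. The fold was 3.06 (95% interval 2.14 to 4.38; edgeR adjusted p = 0.000964). NKD2 spans 1008802 to 1038943 of chromosome 5, on the plus strand. NKD1 (chromosome 16, 50548396 to 50649249) had 4, 4 and 8 counts in NC and 0, 0 and 8 in ASO. These are 0 to about 2 fragments per library, all under the limit, so no difference between the groups was detectable at this depth.

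AXIN2 was the only tested gene of the 6 with a lower fitted level in ASO, and it was close to the limit. It had 45, 14 and 32 counts in NC and 16, 0 and 12 counts in ASO, or about 23 against 7 fragments over 3 libraries each. ASO replicate 1 was above NC replicate 2, so the groups overlapped. The log2 fold change was -1.67 with a 95% interval of -3.97 to 0.63 (edgeR adjusted p = 0.203), wide enough to hold a large fall and a modest rise. Over 14 alternatives its log2 fold change ran from -2.49 to -1.10, with adjusted p from 0.123 to 0.439, and with counts divided by 4 it did not pass the filter. AXIN2 spans 65528563 to 65561648 of chromosome 17 on the minus strand, where 1316 of its 5226 exonic bases are shared with AC004805.1 on the same strand.

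The remaining members were near or under the limit. APCDD1 (chromosome 18, 10454635 to 10489949), the membrane inhibitor, had 0 counts in all 6 libraries, which allows a level of up to 0.22 to 0.24 CPM. TNFRSF19 (chromosome 13, 23570370 to 23676104) had 17, 12 and 8 counts in NC and 0, 8 and 8 in ASO. It was at or over 12 counts in 2 NC libraries and under it in all ASO libraries, and NC replicate 3 had the same count as ASO replicates 2 and 3. LGR5 (chromosome 12, 71439798 to 71586310), the R-spondin receptor, was without counts in NC and had 14, 3 and 0 counts in ASO, so 1 library passed the limit. With no filter on low counts, the edgeR adjusted p was 0.136 for LGR5, 0.529 for TNFRSF19 and 0.695 for NKD1, and both groups of each gene held at most about 9 fragments over 3 libraries.

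**Figure D2:**
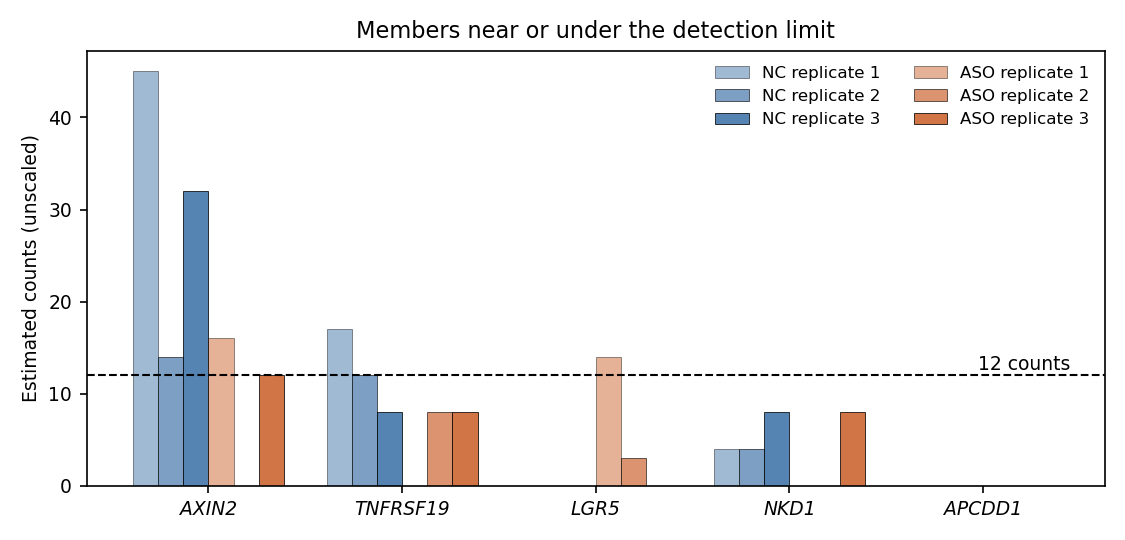
Unscaled estimated counts of the 5 scarce genes in each library (NC blue, ASO orange), with the limit of 12 counts as a dashed line. AXIN2 reaches 45 counts in NC replicate 1, LGR5 passes the line in ASO replicate 1 alone, NKD1 reaches 8 counts at most and APCDD1 has no count in any library.

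**Figure D3:**
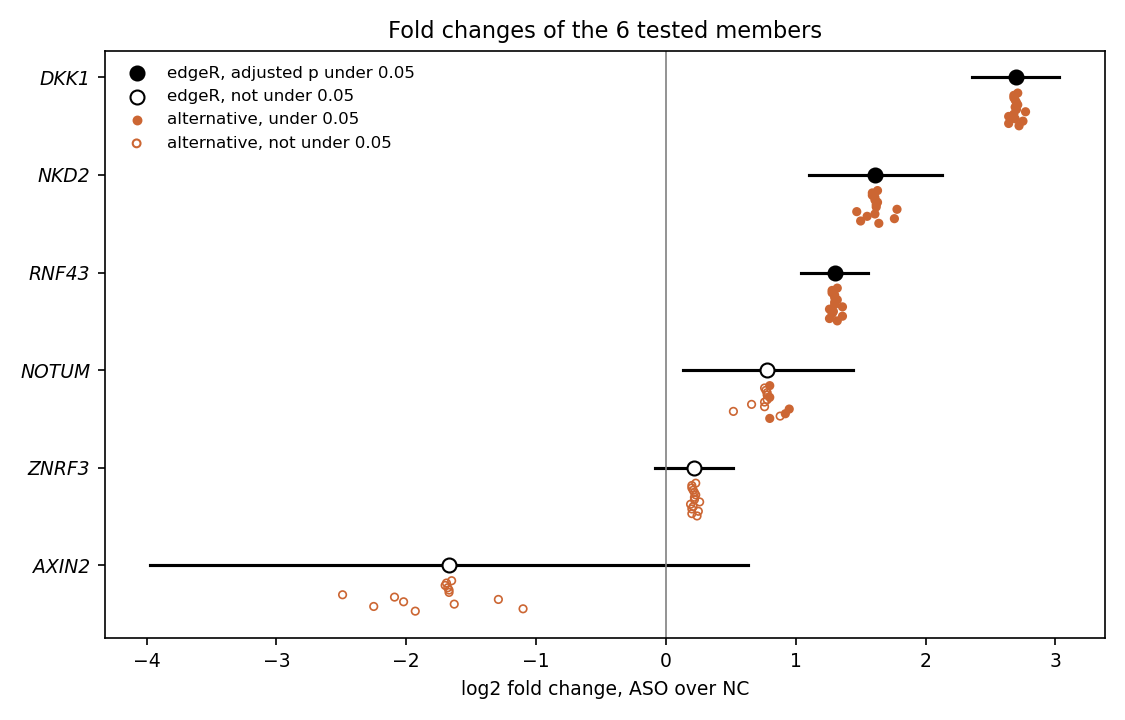
log2 fold change of ASO over NC for the 6 tested genes; large circles are the edgeR values with 95% intervals, filled where the adjusted p is under 0.05, and small circles below them are the alternatives. DKK1 (2.70), NKD2 (1.61) and RNF43 (1.30) are filled throughout, NOTUM (0.78) is filled under some alternatives, and ZNRF3 (0.22) and AXIN2 (-1.67) under none.

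Levels per exon length put the abundant genes in a different order in the 2 groups. In NC, RNF43 stood highest in each library, at 3.51 ± 0.27 CPM per kb of annotated exon (SD, n = 3). NKD2 (2.73 ± 0.60), DKK1 (2.32 ± 0.20) and ZNRF3 (2.27 ± 0.13) followed, and the spread of NKD2 covered the other two. NOTUM was lowest in each library, at 0.908 ± 0.19 CPM per kb. In ASO, DKK1 stood first in each library, at 15 ± 1.23 CPM per kb, followed by RNF43 (8.65 ± 0.63) and NKD2 (8.35 ± 1.64), which did not differ beyond their spread, then ZNRF3 (2.64 ± 0.12) and NOTUM (1.56 ± 0.46). The first place of RNF43 in NC and of DKK1 in ASO was the same per length of the longest annotated transcript, a choice added after the data were seen. The order of DKK1 and ZNRF3 in NC depended on that choice: per exon length it varied between libraries, and per longest transcript DKK1 was above ZNRF3 in all 3 (2.86 ± 0.25 against 2.31 ± 0.13 CPM per kb). Of the 10 pairs among these 5 genes, 7 had within-library count ratios that did not overlap between the groups, as was so for 55.2% of all pairs of genes with 12 counts or more in every library. The 3 pairs that overlapped were those of NKD2 with RNF43, NKD2 with NOTUM and RNF43 with NOTUM. DKK1 had the largest fold change, so its ratio to each of the other 4 genes had to rise. The gains were 1.08 (NKD2), 1.39 (RNF43), 1.93 (NOTUM) and 2.48 (ZNRF3) on the log2 scale. Each had a two-sided exact permutation p of 0.1, the smallest that 3 libraries against 3 allow, or 0.143 after Benjamini-Hochberg adjustment. DKK1 was singled out by its fold change in the same libraries, so nothing is read from these p-values.

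**Figure D4:**
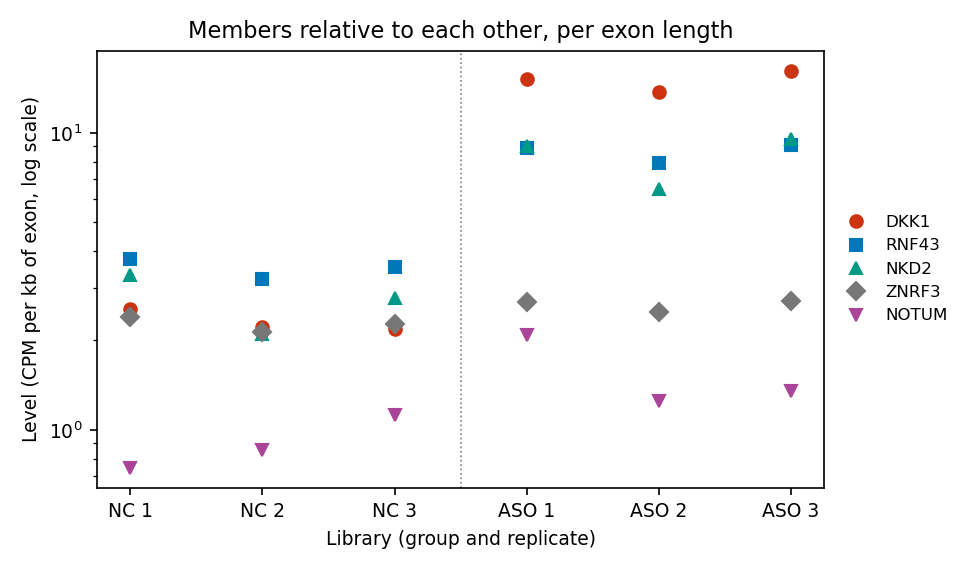
Level of the 5 abundant genes in each library, in CPM per kb of annotated exon on a log axis, NC on the left and ASO on the right. RNF43 is the highest point in the 3 NC libraries and DKK1 in the 3 ASO libraries (13.7 to 16.2 CPM per kb), while ZNRF3 moves little (2.14 to 2.39 in NC and 2.5 to 2.72 in ASO).

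Fold changes rose with the GC content of the transcript across all genes, so the genes were set beside others of like GC content. The median log2 fold change went from -0.45 in the lowest of 10 equal bins of GC content to 0.44 in the highest. NKD2 (67.5% GC in its longest transcript) and NOTUM (66.5%) belonged to the highest bin, where 42.5% of genes rose. RNF43 (50.7%) lay in bin 6, with a median of 0.13, and AXIN2 (53.1%) and ZNRF3 (53.5%) in bin 7, with a median of 0.18. DKK1 (43.5%) lay in bin 3, where the median was -0.20 and 16.2% of genes rose. The part of GC content in the fold changes of these genes was not tested.

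Promoter windows from RefSeq (GRCh38.p14, 250 bases before to 50 after an annotated start) were at hand for 5 of the 10 genes, NKD2, DKK1, TNFRSF19, RNF43 and APCDD1. Those of the 3 genes that rose are printed 5′ to 3′ on the gene's strand. Whether the 3 rises share a cause was not tested. Capitals mark the TCF/LEF core CTTTG or its reverse complement CAAAG, and the AP-1 motif TGANTCA, which reads the same on both strands.
DKK1, chr10:52314031-52314330, plus strand: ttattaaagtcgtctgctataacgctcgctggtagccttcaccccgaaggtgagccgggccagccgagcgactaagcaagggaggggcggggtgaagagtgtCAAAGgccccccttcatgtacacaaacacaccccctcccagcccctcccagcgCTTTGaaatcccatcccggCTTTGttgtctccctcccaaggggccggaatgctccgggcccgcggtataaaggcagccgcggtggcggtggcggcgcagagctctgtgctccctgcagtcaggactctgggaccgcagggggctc
NKD2, chr5:1008552-1008851, plus strand: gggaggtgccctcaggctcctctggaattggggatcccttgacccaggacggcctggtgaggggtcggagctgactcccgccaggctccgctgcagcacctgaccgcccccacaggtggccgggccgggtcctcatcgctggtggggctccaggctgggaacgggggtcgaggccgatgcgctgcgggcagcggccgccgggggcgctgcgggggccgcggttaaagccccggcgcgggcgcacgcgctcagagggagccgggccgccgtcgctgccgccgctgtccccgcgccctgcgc
RNF43, chr17:58417485-58417784, minus strand: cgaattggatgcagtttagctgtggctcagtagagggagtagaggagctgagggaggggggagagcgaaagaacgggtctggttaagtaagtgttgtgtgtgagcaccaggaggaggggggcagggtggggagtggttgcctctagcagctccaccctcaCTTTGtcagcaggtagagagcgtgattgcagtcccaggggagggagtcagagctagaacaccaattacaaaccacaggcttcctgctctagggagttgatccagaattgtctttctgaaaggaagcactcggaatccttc
RNF43, second annotated start, chr17:58402672-58402971, minus strand: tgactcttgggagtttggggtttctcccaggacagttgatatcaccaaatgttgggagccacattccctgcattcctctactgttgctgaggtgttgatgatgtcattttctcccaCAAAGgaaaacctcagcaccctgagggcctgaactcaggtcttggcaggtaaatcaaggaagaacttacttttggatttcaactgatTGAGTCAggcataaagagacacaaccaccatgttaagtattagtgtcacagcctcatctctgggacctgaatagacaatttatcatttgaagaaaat
The longer TCF/LEF motif CTTTGAT (or ATCAAAG) was in none of these windows, nor in those of TNFRSF19 and APCDD1. It occurs in 2.62% of all 35116 windows of this length. The shorter core, searched after the longer one had given no match, occurs in 47.5% of windows. DKK1 held 3 copies, beginning 148, 95 and 76 bases before the start, and 4.41% of windows hold 3 or more. Each RNF43 window held 1 copy and NKD2 held none. Of the windows not printed, the second of TNFRSF19 held 1 copy, beginning 162 bases before the start. The first of TNFRSF19 and that of APCDD1 held no copy, and none of these unprinted windows held the AP-1 motif. The second RNF43 window held the AP-1 motif as TGAGTCA, beginning 47 bases before the start, and 7.71% of windows hold a match to it. NKD2's window is 77% G and C, against 63.7% for DKK1. These matches describe the letters only, and no binding was measured.

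The other Wnt genes were described from 6 lists of 114 genes in all, chosen with results of these data known, of which 85 were tested, 29 were called higher and 7 fell. That is 42.4% called, against 46.0% of all genes (26.8% higher and 19.1% lower). Of the 29, 5 (SOST, FRZB, WNT1, WNT4 and WNT8B) passed the filter on low counts through their ASO libraries alone, where they are high. They could only be called higher or not at all, and nothing is read from their calls. Among the 80 tested genes that reached the filter's level in both groups, 24 were called higher and 7 lower. Without NC replicate 1 the number that fell was 3, and without ASO replicate 3 it was 4. Each list is given by its counts and its median log2 fold change, against a median of 0.01 over all genes.

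Among 22 other secreted or membrane-bound Wnt inhibitors, 10 were tested, and 7 had no count in any library, DKK2 and SFRP1 among them. TPBG, SOST and FRZB were called higher, and 0 fell by edgeR, DESeq2 and limma-voom (1 at an unadjusted p under 0.05 by each), with a median of 0.06. With counts divided by 4, SOST and FRZB did not pass the filter and only TPBG was called. TPBG, a membrane glycoprotein that inhibits Wnt signalling, stood at 57.0 ± 3.01 CPM in NC and rose to 164 ± 14.6 CPM, 2.88-fold (edgeR adjusted p = 2.32e-05). SOST, which encodes the LRP antagonist sclerostin, was without counts in NC and had 30, 75 and 47 counts in ASO. Against the 12-count limit per library its mean was at least 4.39-fold higher. FRZB, a secreted Frizzled-related protein gene, had 0 counts in NC and 18, 26 and 16 in ASO, at least 1.72-fold higher. Both genes passed the filter through their ASO libraries alone, so these bounds describe the counts and nothing more is read from them. The list's median of 0.06 includes both genes. It could not change with them at these bounds (0.78 for FRZB and 2.13 for SOST on the log2 scale), which lie above it. DKK3, a divergent relative of DKK1, did not pass the test, at 32.3 ± 11.5 CPM in NC against 27.6 ± 6.47 CPM in ASO (edgeR adjusted p = 0.554). KREMEN1, a receptor for DKK1, was at 8.36 ± 1.41 CPM in NC against 6.02 ± 0.31 CPM in ASO (edgeR adjusted p = 0.0691). DKK2, SFRP1, DKK3 and KREMEN1 were named after their values were seen.

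Among 6 R-spondins and LGR receptors besides LGR5, RSPO1 and RSPO4 had no count in any library and RSPO2 had 6 at most, while LGR4, LGR6 and RSPO3 passed 12 counts in some library. RSPO3 and LGR4 were tested, and 0 were called by edgeR, DESeq2 or limma-voom, with 0, 0 and 1 at an unadjusted p under 0.05. LGR4, the receptor related to LGR5, was at 9.42 ± 3.68 CPM in NC against 6.15 ± 1.12 CPM in ASO (edgeR adjusted p = 0.152). Its NC libraries were at 11.9, 11.2 and 5.19 CPM, and without NC replicate 3, which lay among the ASO values of 4.99 to 7.22 CPM, it was called lower (log2 fold change -0.92, adjusted p = 0.0217). These genes were named after their values were seen.

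Of 16 other Wnt target genes tested, 9 rose and 1 fell, with a median of 1.03, where 26.8% of all genes were higher and 19.1% lower. The 6 not called were TCF7, EPHB2, EPHB3, CD44, SOX4 and MMP7, named after their values were seen. FOSL1 and JUN, components of the AP-1 transcription factor, rose 42.7-fold and 20.9-fold (edgeR adjusted p = 5.59e-07 and 1.31e-06), and both are also immediate early genes. CCND1, which encodes cyclin D1, stood at 21.4 ± 1.26 CPM in NC and rose to 95.7 ± 1.69 CPM, 4.47-fold (edgeR adjusted p = 3.88e-06). MYC rose 2.36-fold (edgeR adjusted p = 0.0289), a call that ended without any one of NC replicates 1 and 2 and ASO replicates 1 to 3 (adjusted p from 0.0692 to 0.124) or with no filter on low counts (0.072). Without NC replicate 3, at 138 CPM against 56.7 and 48.2 CPM in the other two, the call held at 3.6-fold. PPARD fell by 0.49 on the log2 scale (edgeR adjusted p = 0.0341), and that call ended without NC replicate 1 (0.0721), NC replicate 3 (0.0854) or ASO replicate 1 (0.06). LEF1, SP5 and ASCL2, targets often read beside AXIN2 and picked for mention once their values were known, had no count in any library.

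Upstream of the feedback genes, 16 ligand and secretion genes were tested, of which 7 were called higher and 2 fell (median 0.50). PORCN, the enzyme that attaches the lipid that NOTUM removes, rose 2.19-fold (edgeR adjusted p = 0.000142), while WLS, the carrier of Wnt ligands to the surface, fell by 0.76 on the log2 scale (edgeR adjusted p = 0.000553). WNT7B rose 4.29-fold to 6.43 ± 1.46 CPM, and WNT6 fell by 1.02 on the log2 scale to 4.47 ± 1.14 CPM (edgeR adjusted p = 0.00121 and 0.00796). WNT4 had 5, 0 and 0 counts in NC, under the limit, and 3.35, 3.52 and 3.78 CPM in ASO. WNT1, WNT4 and WNT8B are the 3 of the 7 that passed the filter through ASO alone. The median of 0.50 includes them, so nothing is read from it.

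Of 13 receptor genes tested, which include targets of RNF43, ZNRF3 and DKK1, 2 rose and 1 fell (median -0.17). The counts were unstable: 1 rose without NC replicate 1 or NC replicate 2, 4 rose without ASO replicate 2 or with counts divided by 4, and 3 fell with a replicate block. ROR1 rose 4.24-fold to 4.72 ± 0.96 CPM (edgeR adjusted p = 0.00219) and FZD5 1.37-fold (0.0229), while ROR2 fell by 0.32 on the log2 scale (0.044). FZD5 was not called without NC replicate 1, 2 or 3 (adjusted p from 0.0516 to 0.096). Nor was ROR2 without any one of NC replicates 1 to 3 and ASO replicates 2 and 3 (0.0713 to 0.126), with the RLE scaling (0.0544) or with counts divided by 4 (0.0562). LRP5 and LRP6, the co-receptors bound by DKK1 and named after their values were seen, were at 165 ± 9.14 and 36.5 ± 1.71 CPM in the NC libraries and 147 ± 20.2 and 28.3 ± 5.23 CPM with the oligonucleotide (edgeR adjusted p = 0.256 and 0.0783).

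Among 28 genes of the beta-catenin machinery, 8 rose and 3 fell, with a median of 0.04. Without NC replicate 1, NC replicate 2, ASO replicate 1 or ASO replicate 3, 5 rose, and without NC replicate 1 or ASO replicate 3, 1 fell. The casein kinase genes CSNK1E and CSNK1D rose 2.35-fold and 1.6-fold, and BCL9L, a beta-catenin cofactor, 2.00-fold (edgeR adjusted p = 8.2e-05, 0.000758 and 0.000235). APC, the tumour suppressor of the destruction complex, fell by 1.5 on the log2 scale, from 13.4 ± 4.88 to 4.73 ± 1.32 CPM (edgeR adjusted p = 0.00575). BTRC, which encodes the ligase subunit that marks beta-catenin for degradation, fell by 0.70, and AMER1, which binds APC, by 0.38 (edgeR adjusted p = 0.0169 and 0.0415). The BTRC call ended without NC replicate 1, 2 or 3 or ASO replicate 3 (adjusted p from 0.0512 to 0.0635), and that of AMER1 without NC replicate 1, 2 or 3 or ASO replicate 2 or 3 (0.0541 to 0.126). AXIN1, the constitutive relative of AXIN2, was at 98.5 ± 7.83 CPM in NC against 124 ± 12.7 CPM in ASO (edgeR adjusted p = 0.0392), a call that held without ASO replicate 2 and ended without any one of the other 5 libraries (0.0569 to 0.124). CTNNB1 was at 319 ± 15 CPM in NC against 322 ± 9.17 CPM in ASO (edgeR adjusted p = 0.881). AXIN1 and CTNNB1 were named after their values were seen.

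**Figure D5:**
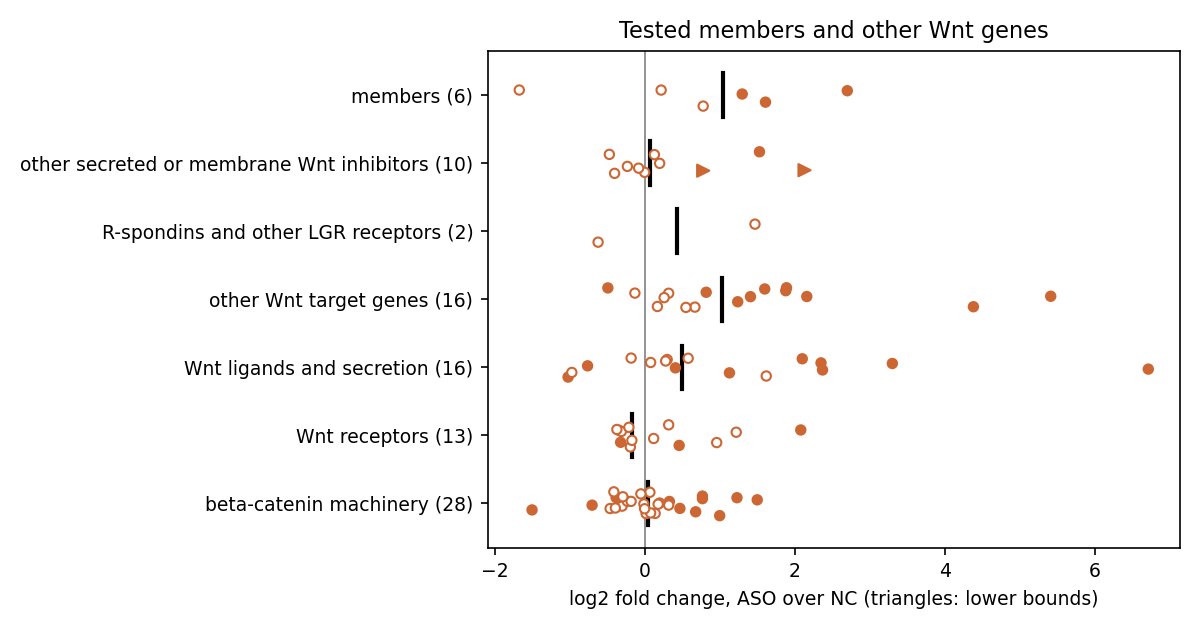
log2 fold change of ASO over NC for the 6 tested feedback genes and the tested genes of the 6 other Wnt lists (number tested in brackets); each point is a gene, filled where the edgeR adjusted p is under 0.05, triangles are lower bounds for SOST and FRZB, and black bars are medians. The medians are 1.04 for the feedback genes and 1.03 for the other Wnt target genes, and between -0.17 and 0.50 for the other lists. No list was tested as a set. The 0.50 of the ligand and secretion list includes WNT1, WNT4 and WNT8B, which passed the filter through ASO alone. The value of WNT4, farthest right, rests on 5 counts in NC.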

How the data were processed

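The data are 6 RNA-seq libraries, 3 per group. Per the submitters' processing notes, FastQC, STAR, StringTie, DESeq2 and build hg38 were used; the sources used here give no versions, annotation release, strand or multi-mapping rule. The authors deposited estimated counts per gene symbol, unscaled and already whole numbers, so rounding changed nothing. In R 4.3.3, edgeR 4.0.16 kept 14062 of 19655 genes by filterByExpr (minimum count 10, minimum total 15), scaled by TMM, and ran a robust quasi-likelihood test without a replicate block, Benjamini-Hochberg adjusted over all genes tested, threshold 0.05. SE and 95% intervals follow from its F statistic. Library totals of 49136502 to 54905215 counts, at about 4 counts per fragment, make AXIN2 and scarcer genes imprecise. Exon lengths, overlaps and GC content came from GENCODE (GRCh38), GC for 99.0% of tested genes, matched by symbol. Within-library ratios were tested by exact permutation. The edgeR procedure was run on simulated data in which few genes changed, all of them abundant and balanced in direction. That run does not cover scarce genes or a change as broad as in these data. Members, lists and tests were chosen with earlier results of these data known. The text names all members, up to 3 called genes per list and direction with the smallest p, MYC, CCND1, the cell markers, and those marked as named later. Alternatives were RLE, upper-quartile and no scaling, no filter, DESeq2 1.42.0, limma 3.58.1 (voom), a mean of 10 counts, a replicate block, leaving out each library, and counts divided by 4.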

Additional observations from a re-analysis of the deposited data

How the results depend on the processing

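The calls of DKK1, NKD2 and RNF43 held in all 15 alternatives, with log2 fold changes of 2.64 to 2.77, 1.47 to 1.78 and 1.26 to 1.36, and 3 or 4 members were called higher in each. The fourth was NOTUM, at 0.80 with RLE scaling, 0.80 with DESeq2 (where 28.5% of all genes were higher) and 0.80 with counts divided by 4, and between 0.52 and 0.95 with a library left out. Members called lower stayed at 0. With single libraries left out, companion genes called lower ran from 3 to 7, and all genes called lower from 1755 to 3199, against 2692. With a limit of 3 counts, 1 member was under it in every library, and with 24 counts 4 were, against 2. Same-numbered NC and ASO libraries had deviations correlated at 0.05, 0.19 and 0.02, and differently numbered ones at -0.14 to 0.09. Values this small and few cannot settle whether the numbers pair the libraries. A replicate block kept 3 members higher and 0 lower, with 31 companion genes higher and 10 lower and 3924 and 3494 of all genes. Its log2 fold changes were 2.70 for DKK1, 1.62 for NKD2, 1.30 for RNF43, 0.76 for NOTUM, 0.22 for ZNRF3 and -2.09 for AXIN2. Scarcity limits AXIN2, NKD1, TNFRSF19, LGR5 and APCDD1.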
